A study of Mus musculus with 2 samples.

Results

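The 7 genes of muscle fuel choice and muscle wasting described here, *Pdk4*, *Cpt1b*, *Ucp3*, *Angptl4*, *Fbxo32*, *Trim63* and *Foxo1*, were followed through 2 sections of fractured mouse femur, with *Pdk4* as the gene whose extent across the section was in question. They are 7 of the 19465 genes counted, and were chosen by name after a lower level of *Pdk4* in the Loaded bone region had been seen in these same sections. Their Loaded over Control values are therefore a description, and none is a test. The sections came from female bone cell reporter (BCR) mice, in which *Ibsp*, an osteoblast gene, and *Acp5*, an osteoclast gene, are labelled with the fluorescent proteins eGFP and mCherry. Both mice carried these labels, had a mid-diaphyseal osteotomy of the femur under an external fixator at 12 weeks of age, and were killed at 17 weeks. From week 3 after surgery, when the gap had bridged, until week 5, the Loaded mouse had cyclic compression of 8 to 16 N through the fixator 3 times a week, and the Control mouse had sham sessions at 0 N. There was 1 mouse and 1 section per group, so loading cannot be told apart from any other difference between the mice, their sections or their libraries.

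Skeletal muscle burns glucose or fatty acids according to supply. PDK4 phosphorylates and switches off the pyruvate dehydrogenase complex, which spares glucose, and its gene is switched on by fasting, glucocorticoids, FoxO factors and fatty acids acting through PPAR receptors. CPT1B brings long-chain fatty acids into muscle mitochondria, UCP3 is an uncoupling protein of muscle mitochondria, and ANGPTL4 is a secreted inhibitor of lipoprotein lipase. FBXO32 (atrogin-1) and TRIM63 (MuRF1) are the ubiquitin ligases that mark muscle proteins for breakdown in wasting, and FOXO1 is a transcription factor that can switch on *Pdk4* and both ligase genes.

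On the mouse genome (GRCm38) *Pdk4* lies at chr6:5483351-5496309 on the minus strand, *Cpt1b* at chr15:89416405-89425863 (minus), *Ucp3* at chr7:100472990-100486432 (plus) and *Angptl4* at chr17:33773750-33781830 (minus). *Fbxo32* lies at chr15:58175879-58214932 (minus), *Trim63* at chr4:134315120-134329629 (plus) and *Foxo1* at chr3:52268336-52353221 (plus). The RefSeq promoter set (GRCm38.p6) held a window for 4 of the 7 genes, and *Cpt1b*, *Angptl4* and *Fbxo32* had no entry. The 250 bases before the RefSeq start, less those inside the gene as GENCODE draws it, are shown for *Pdk4*, on which the results turn, and for *Trim63* and *Ucp3*, whose windows held matches to motifs of the factors named above. Capitals mark the matches, and each sequence is read 5′ to 3′ on the gene's own strand.
Pdk4 (chr6:5496310-5496528, minus): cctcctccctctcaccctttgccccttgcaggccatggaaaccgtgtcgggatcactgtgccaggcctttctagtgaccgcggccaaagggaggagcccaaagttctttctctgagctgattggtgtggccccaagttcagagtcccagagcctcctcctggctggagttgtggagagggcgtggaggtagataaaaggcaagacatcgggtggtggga
Trim63 (chr4:134314870-134315119, plus): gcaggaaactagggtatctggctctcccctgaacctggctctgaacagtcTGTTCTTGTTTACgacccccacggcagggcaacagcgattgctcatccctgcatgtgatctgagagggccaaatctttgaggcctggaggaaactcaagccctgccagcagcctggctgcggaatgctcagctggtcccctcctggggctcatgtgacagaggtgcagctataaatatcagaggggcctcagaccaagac
Ucp3 (chr7:100472741-100472989, plus): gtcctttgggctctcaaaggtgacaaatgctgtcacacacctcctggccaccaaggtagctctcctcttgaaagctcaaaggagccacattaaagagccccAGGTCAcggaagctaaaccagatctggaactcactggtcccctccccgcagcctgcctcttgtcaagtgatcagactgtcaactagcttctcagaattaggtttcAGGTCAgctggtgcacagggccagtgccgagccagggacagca

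In *Trim63* the capitals join TGTTCT, a core of the glucocorticoid response element, and, directly after it, the FoxO element GTAAACA read on the other strand, at positions -200 and -194 from the RefSeq start. In *Ucp3* they mark AGGTCA, the core bound by PPAR and its partner RXR, at positions -149 and -44. Searched on both strands in all 32851 promoter windows of 300 bases, GTAAACA was found in 3.65%, TGTTCT in 19% and AGGTCA in 16.3%. The longer forms, AGGTCA repeated after 1 base (0.0396% of windows) and the full glucocorticoid response element (0.00913%), were in none of the 4 windows, and no motif searched was found in those of *Pdk4* and *Foxo1*. These are matches of letters, with no measurement of binding.

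Expression was measured with the Visium assay for fixed, paraffin-embedded tissue, in which probe pairs count transcripts as unique molecular identifiers (UMIs) in a grid of spots. Each section was divided into the bone region, which is the study's own list of barcodes (131 Control and 146 Loaded spots), muscle spots (998 and 711), which are other spots where a list of 22 muscle genes takes at least 10% of the UMIs, and all remaining spots (769 and 574). Depth was 557259 and 409020 UMIs in the bone region, 6903798 and 3006320 in muscle spots, and 1523155 and 1493467 in the remaining spots. Because a spot holds many cells, fewer muscle fibres in a spot and less RNA per fibre cannot be told apart. The muscle list share was 15.4% of the UMIs in the Control and 8.25% in the Loaded bone region, 32.4% and 24.3% in muscle spots, and 5.08% and 6.07% in the remaining spots. Slow fibre genes took 1.3% of the slow and fast fibre UMIs of Control muscle spots and 11% of those of Loaded ones. Both differences move with the results below, so the values of *Pdk4* are also given per muscle UMI, at matched muscle content and, separately, by fibre type. Those of other members are given in part. Osteoblast genes took 0.841% and 2.53% of the UMIs of the bone regions and 0.1% and 0.256% of those of muscle spots. Granulocyte genes took 0.0874% and 0.362% in the bone region, 0.0217% and 0.0571% in muscle spots and 0.256% and 0.606% in the remaining spots. Macrophage genes took 0.0251% and 0.0602% in muscle spots, and adipocyte genes 0.39% and 0.0957% in the remaining spots. Each marker measured had UMIs in every tissue of both sections, except *Adgre1*, a macrophage gene, at 0 in the Loaded bone region. The part of these mixtures in the results was not tested.

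*Pdk4* was lower in the Loaded section in all 3 tissues. In the bone region it had 70 UMIs in the Control section, in 40 of its spots, and 5 in the Loaded section, in 5 spots. In muscle spots it had 1111 UMIs (401 spots) against 123 (102 spots), and in the remaining spots 53 (51 spots) against 23 (23 spots). After division by scran size factors, which correct for the RNA content of the spots, the log2 fold change of Loaded over Control was -3.48 in the bone region (95% interval -5.15 to -2.19), -2.34 in muscle spots (-2.62 to -2.07) and -1.22 in the remaining spots (-2.0 to -0.49). These are 11.2-, 5.06- and 2.34-fold lower levels, and the intervals cover counting error only. In the bone region the value was -2.65 (-4.39 to -1.25) without the Control block richest in muscle, where a block is 1 of 4 parts of a tissue. Among genes with at least 50 UMIs, *Pdk4* stood 4th from the lowest of 3914 in the bone region, 5th of 9918 in muscle spots and 210th of 8833 in the remaining spots. The genes below it in muscle spots, named after their values were seen, were *Col2a1*, *Col9a1* and *Clec3a*, which are cartilage genes, and *Retn*, an adipokine.

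**Figure D1:**
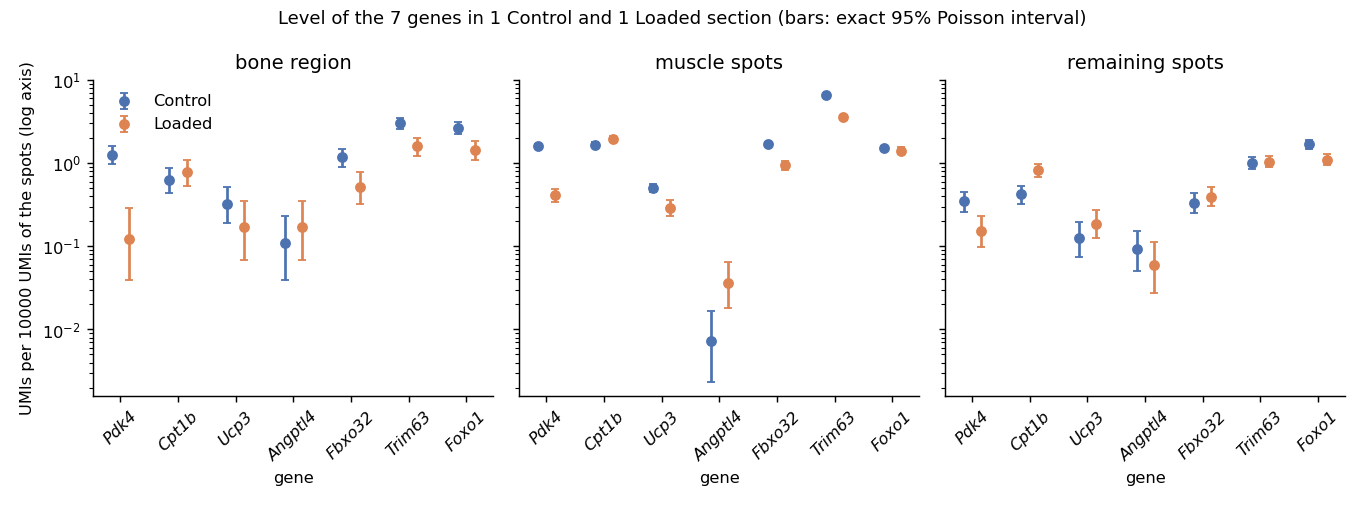
Level of each of the 7 genes as UMIs per 10000 UMIs of the spots (log axis), in the bone region, muscle spots and remaining spots of the Control (blue) and Loaded (orange) section, with exact Poisson 95% intervals. Pdk4 lies lower in the Loaded section in each panel, 1.61 against 0.409 in muscle spots, while Cpt1b does not.

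The ligase genes were lower in fewer tissues than *Pdk4*. *Trim63* had 167 UMIs in the Control and 65 in the Loaded bone region, 4523 and 1085 in muscle spots, and 153 and 156 in the remaining spots. Its log2 fold change was -1.03 (-1.47 to -0.61) in the bone region and -1.22 (-1.32 to -1.13) in muscle spots, but 0.01 (-0.32 to 0.34) in the remaining spots. That last value joins remaining spots near the bone, where *Trim63* was lower, and far from it, where it was higher (below). *Fbxo32*, the other ligase, followed the same pattern between the tissues, though not inside muscle (below), with 65 and 21, 1168 and 282, and 51 and 59 UMIs. Its log2 fold changes were -1.30 (-2.09 to -0.57), -1.21 (-1.41 to -1.03) and 0.19 (-0.38 to 0.76). The values of both ligases leaned on the Control blocks on one side and at one end of the bone. Without that block of the tissue, the bone region gave -0.42 (-0.93 to 0.08) for *Trim63* and -0.74 (-1.62 to 0.12) for *Fbxo32*, and muscle spots gave -0.64 (-0.76 to -0.52) and -0.44 (-0.69 to -0.19).

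*Foxo1* was lower in all 3 tissues, by less than *Pdk4*. It had 147 UMIs in the Control and 58 in the Loaded bone region, 1055 and 422 in muscle spots, and 258 and 164 in the remaining spots. The log2 fold changes were -1.01 (-1.48 to -0.57), -0.49 (-0.65 to -0.32) and -0.67 (-0.96 to -0.39). In muscle spots this rested on the scaling, since it was -0.12 (-0.29 to 0.04) with library totals and 0.29 (0.12 to 0.46) per UMI of the muscle list.

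*Cpt1b* gave no lower level in the bone region or the remaining spots. It had 35 and 32 UMIs in the bone region, 1152 and 586 in muscle spots, and 64 and 123 in the remaining spots. Its log2 fold change was 0.20 (-0.54 to 0.93) in the bone region and 0.92 (0.48 to 1.38) in the remaining spots. The latter came to 0.13 (-0.81 to 1.04) where remaining spots were limited to a muscle share below 5%. In muscle spots it was -0.14 (-0.29 to 0.00) with scran factors, -0.28 (-0.43 to -0.14) with TMM factors and 0.22 (0.08 to 0.37) with library totals, so no direction is given there.

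*Ucp3* had 18 and 7 UMIs in the bone region, 346 and 87 in muscle spots, and 19 and 28 in the remaining spots. Its log2 fold change was -1.16 (-1.51 to -0.81) in muscle spots, whereas the intervals of the bone region (-1.04, -2.54 to 0.29) and of the remaining spots (0.54, -0.35 to 1.46) held 0. *Angptl4* was scarce, with 6 and 7, 5 and 11, and 14 and 9 UMIs. Its log2 fold change was 1.97 in muscle spots with an interval of 0.33 to 3.85, which held 0 with a muscle share limit of 5% (1.18, -0.13 to 2.57) or 20% (2.05, -1.08 to 5.63). It also held 0 without the first Control block (1.35, -0.57 to 3.83) or without the first (1.64, -0.24 to 3.63) or second (1.73, -0.24 to 3.78) Loaded block, and the intervals of the other tissues held 0.

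Of the 7 genes, 5 were at least 2-fold lower in the Loaded bone region, beside 9.81% of the 10003 genes with at least 10 UMIs there. In muscle spots it was 4 of 7, beside 4.90% of 12693 genes, and in the remaining spots 1 of 7, *Pdk4*, beside 9.30% of 14937 genes. These counts rested on the scaling. With library totals they were 2 (*Pdk4* and *Fbxo32*), 1 (*Pdk4*) and 1 (*Pdk4*), beside 7.87%, 1.82% and 7.66% of all genes. At least 2-fold higher were 1 of the 7 in muscle spots, *Angptl4* (8.33% of all genes), 0 in the bone region (10.6%) and 0 in the remaining spots (3.19%). The median log2 fold change of the 7 was -1.03, -1.16 and 0.01, and that of all genes was 0.02, 0.10 and -0.09. Because the genes were chosen with these values known, the counts say nothing about the set as such.

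**Figure D2:**
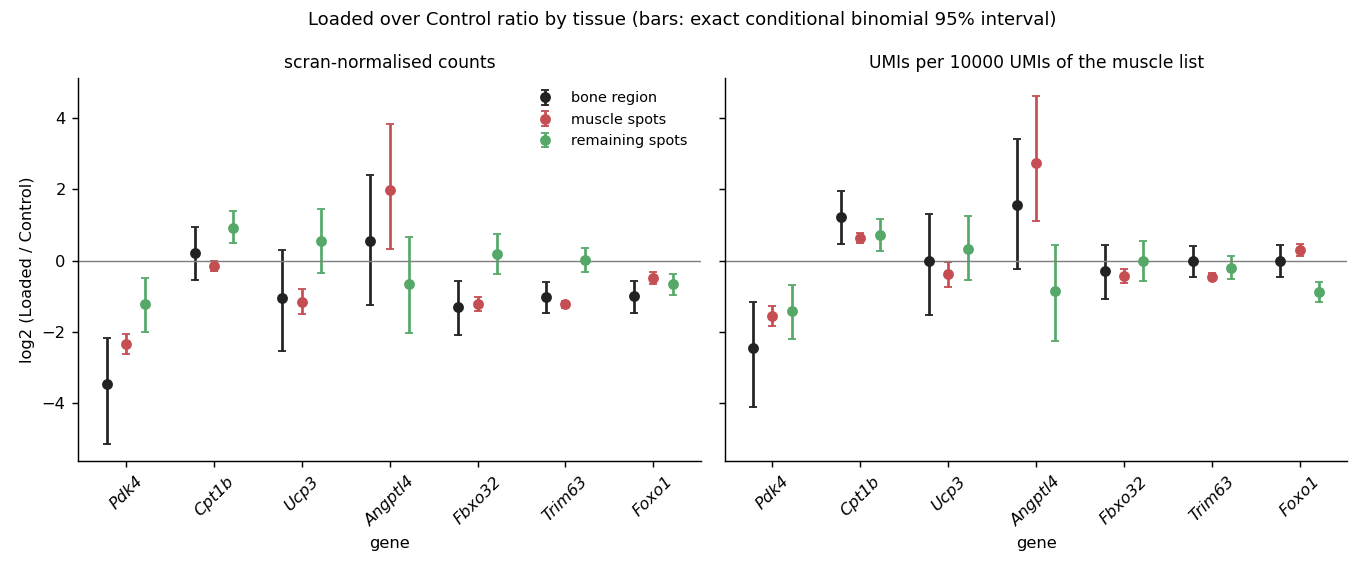
Log2 ratio of Loaded over Control for the 7 genes in the bone region (black), muscle spots (red) and remaining spots (green), with 95% intervals, from scran-normalised counts (left) and from UMIs per 10000 UMIs of the muscle list (right). On the right Pdk4 stays below 0 in each tissue (-2.46, -1.56 and -1.43), while Trim63, Fbxo32 and Foxo1 of the bone region come to between -0.29 and 0.00. Every gene of the bone region moves by 1.01 between the panels. In bone spots of like muscle share Foxo1 was lower (-1.11 at 5 to 10% and -0.97 at 10 to 20%).

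Within a section, *Pdk4*, *Cpt1b*, *Ucp3*, *Fbxo32* and *Trim63* stood higher in muscle spots than in the remaining spots, although the interval of *Ucp3* in the Loaded section reached 0. Muscle spots of the Control section held 4.62 times as many *Pdk4* UMIs per 10000 UMIs as the remaining spots (log2 2.21, 1.81 to 2.64), and those of the Loaded section 2.66 times as many (1.41, 0.76 to 2.12). For *Trim63* these ratios were 6.52 and 3.46. With scran factors over all spots the log2 ratios in the Control section were larger, at 2.93 (2.53 to 3.36) for *Pdk4* and 3.43 (3.20 to 3.67) for *Trim63*. *Foxo1* of muscle spots stood at 0.902 times its level in the remaining spots in the Control section and 1.28 times in the Loaded section, and *Angptl4* at 0.0788 and 0.607 times. With scran factors over all spots the log2 ratio of *Foxo1* in the Control section turned from -0.15 to 0.57 (0.38 to 0.78), so its order between these tissues depends on the scaling.

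The Loaded bone region held less muscle RNA. Dividing by the UMIs of the muscle list moves the log2 ratios of all genes of a tissue alike. The shift was 1.01 in the bone region, 0.78 in muscle spots and -0.21 in the remaining spots. Per 10000 UMIs of the muscle list, the bone region had 19.5 *Trim63* UMIs in the Control and 19.3 in the Loaded section, a log2 ratio of -0.02 (-0.46 to 0.40). For *Fbxo32* the values were 7.59 and 6.22 (-0.29, -1.07 to 0.44), and for *Ucp3* 2.10 and 2.07 (-0.02, -1.52 to 1.31). On this scale the intervals of the 3 genes held 0 in the bone region. In muscle spots they lay below 0, at -0.45 (-0.54 to -0.35) for *Trim63*, -0.44 (-0.63 to -0.25) for *Fbxo32* and -0.38 (-0.74 to -0.04) for *Ucp3*. *Pdk4* went from 8.18 to 1.48 in the bone region (-2.46, -4.13 to -1.17), from 4.97 to 1.68 in muscle spots (-1.56, -1.84 to -1.29) and from 6.85 to 2.54 in the remaining spots (-1.43, -2.21 to -0.70). Its values on this scale lay below 0 in all 3 tissues. *Cpt1b* was higher per muscle UMI in each of them, by 1.21, 0.64 and 0.71. The scale itself moves with the muscle list, and the median of all genes on it was 1.04, 0.87 and -0.30.

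Spots of like muscle content gave the same order. Over all spots of a section, *Pdk4* per 10000 UMIs was 0.487 in the Control and 0.209 in the Loaded section where the muscle share was 5 to 10% (log2 -1.22), and 0.837 and 0.306 at 10 to 20% (-1.45). It was 1.60 and 0.556 at 20 to 30% (-1.53), and 1.75 and 0.364 at 30% and over (-2.26, -2.79 to -1.78). Below 5% there were 21 UMIs in 405 Control spots and 1 in 172 Loaded spots. In the bone region alone, *Pdk4* had 18 UMIs in 41 Control and 3 in 61 Loaded spots with a share of 10 to 20%, and 10 in 39 and 2 in 59 spots at 5 to 10%. The interval of the former left out 0 (-3.17, -5.58 to -1.39) and that of the latter did not (-2.16, -5.39 to 0.07). At 20 to 30% there were 17 UMIs in 26 Control bone spots and 0 in 1 Loaded spot. The share of a bone spot reached 32.9% in the Control and 24.7% in the Loaded section. The most muscle-rich Control bone spots thus had almost no match.

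**Figure D3:**
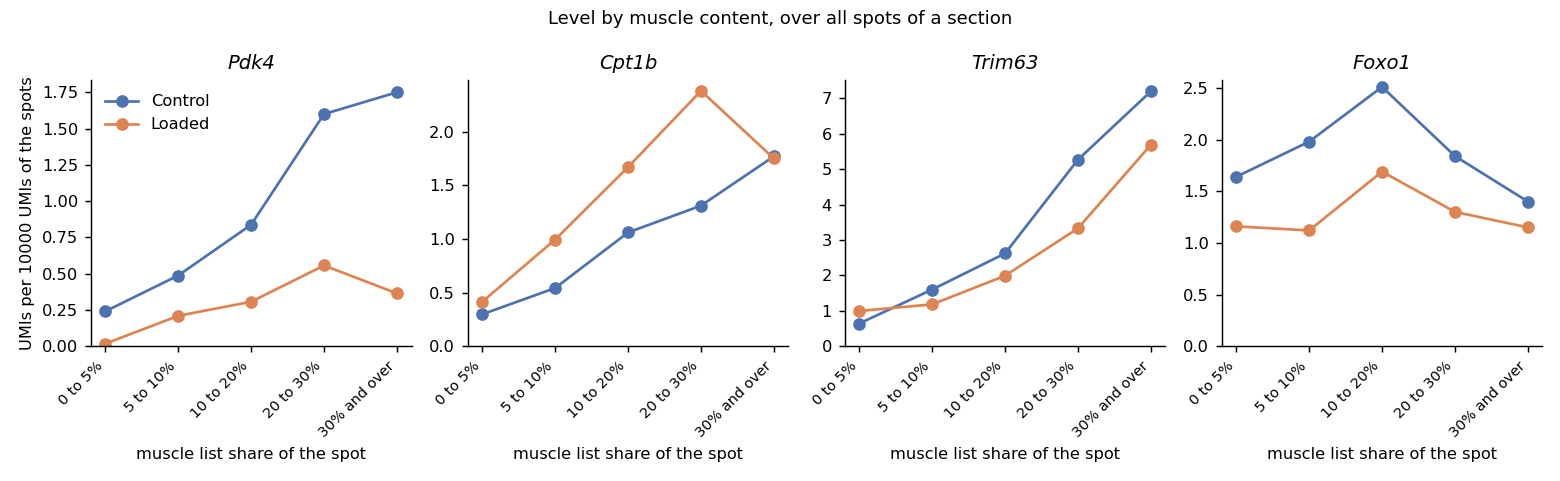
UMIs per 10000 UMIs of 4 genes against the muscle list share of the spots, over all spots of the Control (blue) and Loaded (orange) section. Pdk4 is lower in the Loaded section in each of the 5 bands, Cpt1b is higher in the first 4 and about equal in the last (1.77 and 1.75), and Foxo1 is lower in each band with no rise toward the most muscle-rich spots.

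At matched muscle content *Foxo1* was also lower in each of the 5 bands, by 0.27 to 0.82 on the log2 scale, and the interval of the most muscle-rich band (-0.57 to 0.01) held 0. In the bone region alone *Foxo1* was -1.11 (-2.02 to -0.26) at 5 to 10% and -0.97 (-1.82 to -0.14) at 10 to 20%. Below 5% it was -0.68 (-1.65 to 0.26) there. *Trim63* was lower in 4 bands, by 0.34 to 0.67, and higher below 5% (0.64, 0.09 to 1.19). *Fbxo32* was lower at 10 to 20% (-0.59, -1.05 to -0.12) and at 30% and over (-0.90, -1.22 to -0.60). Its intervals in the other bands held 0, with -0.15 (-0.53 to 0.24) at 20 to 30%. *Cpt1b* was higher by 0.65 to 0.87 in the 3 bands from 5 to 30%, with intervals that left out 0. At 30% and over it was -0.02 (-0.26 to 0.22). The band ratios used library totals, with which the median of all genes in muscle spots was 0.46. Fibre type and position were not matched within the bands.

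Spots were also grouped by fibre type and by distance from the bone, without matching their muscle content. The ratios used library totals, with which *Pdk4* of all muscle spots was -1.98 (-2.26 to -1.71). The muscle share of Control and Loaded muscle spots was 33.2% and 28.3% in slow-poor and 17.2% and 17.3% in slow-rich spots. By distance, from near to far, it was 30.3% and 22.3%, 33.4% and 26%, and 32.5% and 24.5%. In muscle spots where slow fibre genes took under 10% of the fibre UMIs, *Pdk4* was 1.65 per 10000 UMIs in 936 Control spots and 0.313 in 490 Loaded spots (log2 -2.39, -2.80 to -2.02). In slow-rich muscle spots it was 0.927 in 62 and 0.579 in 221 spots (-0.68, -1.31 to -0.02), the smaller difference. Muscle spots within 500 μm of the bone region gave -2.17, those from 500 to 1500 μm -2.43, and those farther away -0.90 (-1.41 to -0.42). The remaining spots gave -1.46, -1.38 and -0.25, and the intervals of the outer pair (-3.28 to 0.31 and -2.29 to 1.39) held 0 at counts of 10 and 5, and 16 and 4 UMIs. For *Fbxo32*, slow-poor muscle spots gave -0.92 (-1.16 to -0.69) and slow-rich ones 0.26 (-0.35 to 0.92). *Trim63* gave -0.60 and -0.66 (-0.98 to -0.32). *Cpt1b* gave -0.10 (-0.29 to 0.08) in slow-poor and 0.52 (0.13 to 0.94) in slow-rich muscle spots. By distance, from near to far, *Cpt1b* of muscle spots gave -0.07 (-0.37 to 0.22), 0.04 (-0.17 to 0.26) and 0.96 (0.68 to 1.23). From near to far, muscle spots gave -1.31, -0.89 and -0.14 (-0.54 to 0.24) for *Fbxo32*, and -0.83, -0.97 and -0.73 for *Trim63*. The remaining spots gave -0.71 (-1.13 to -0.30), 0.62 (-0.19 to 1.48) and 1.58 (0.73 to 2.43) for *Trim63*. Their muscle share was 5.52% and 5.65% near the bone, and 4.61% and 7.45% farthest from it.

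*Pdk4* was also uneven inside each section. In the Control section 897 of the 1111 muscle UMIs lay in 1 of 4 blocks, the 443 muscle spots on one side and at one end of the bone. Raw counts also follow depth. Per 10000 UMIs the block held 2.06, and the others 0.55, 0.851 and, in 5 spots with 9 UMIs, 2.43. Without the block of 443 spots the log2 fold change in muscle spots was -1.32 (-1.66 to -1.0) in place of -2.34. Along the bone in steps of 1 mm, Control muscle went from 2.55 UMIs per 10000 (311 UMIs) at one end to 0.611 (3 UMIs in 37 spots) at the other, over 9 steps of at least 20 spots. Loaded muscle ran from 0.0994 to 0.824 over 7 steps. Of the Loaded steps, 6 lay below every Control step, and 7 Control steps lay above every Loaded step. The share of all genes that do the same was not computed. The muscle share was 34.1% in the first Control step and 12.7% in the last, so the steps are not of like muscle content. The steps were drawn after the values were seen, and positions do not correspond between the sections.

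**Figure D4:**
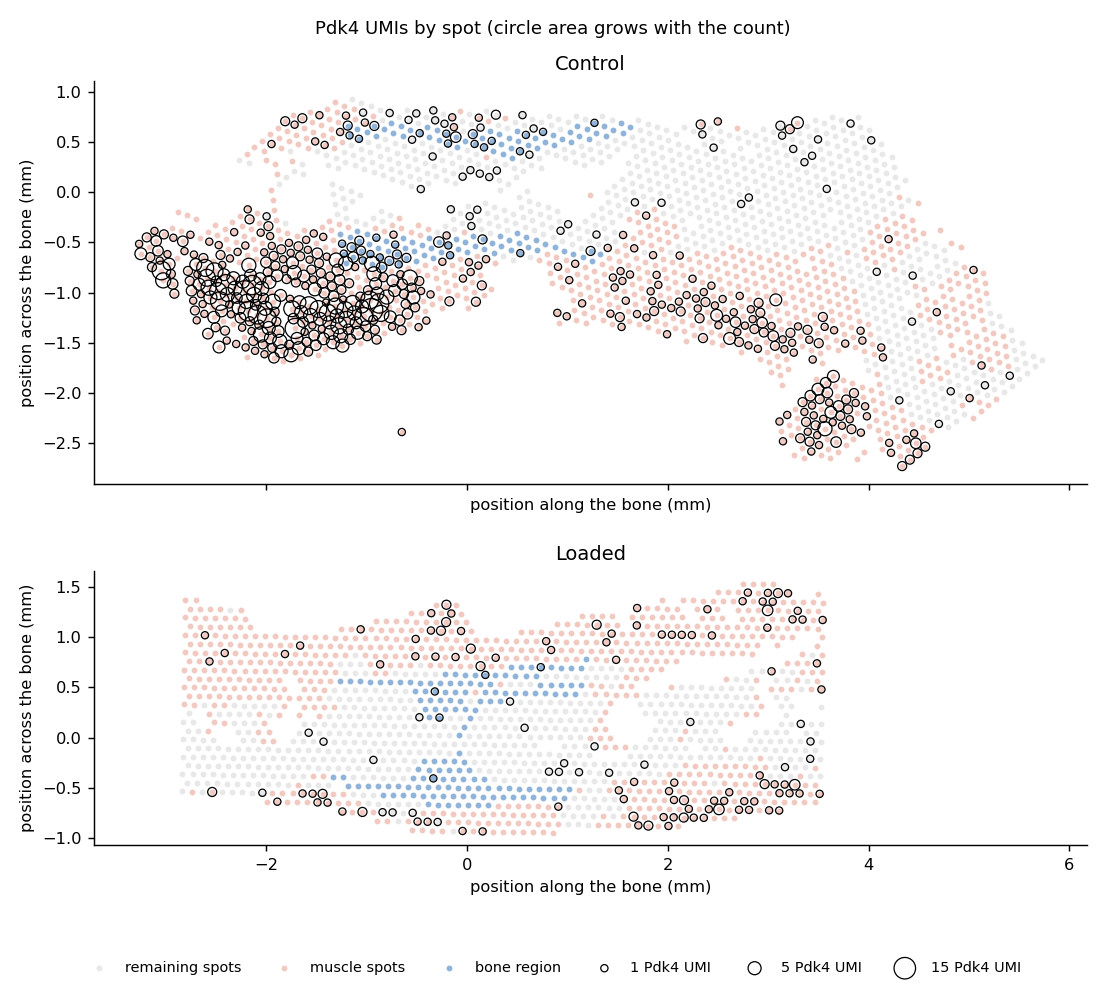
Spots of the Control (top) and Loaded (bottom) section by position along and across the bone in mm, with bone region spots in blue, muscle spots in pink and remaining spots in grey. Black circles mark spots with Pdk4 UMIs and grow with the count. Pdk4 crowds into the muscle at one end of the Control section, where a spot holds up to 17 UMIs, and no Loaded muscle spot exceeds 3. These are raw counts, and the median depth of muscle spots was 5082 UMIs in the Control and 3438 in the Loaded section.

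By block, *Pdk4* of the Control bone region was 1.95, 1.18, 1.05 and 0.494 UMIs per 10000, and of the Loaded one 0.0777, 0.231, 0 and 0.183. Each Loaded block was below each Control block. The same was true as scran-normalised counts per spot, the scale on which it held for 2.68% of all genes. The lowest Control block, with 9 UMIs, had a muscle share of 5.58%. The Loaded block with the highest share, 11.2%, lay below it on 2 UMIs. The Loaded blocks held only 1, 2, 0 and 2 UMIs, so the order of the blocks rests on few counts. In the remaining spots the blocks overlapped as UMIs per 10000, at 0.257 to 0.409 in the Control and 0.0673 to 0.27 in the Loaded section. As scran-normalised counts per spot they lay close together without overlap, at 0.0573 to 0.1 and 0.0156 to 0.0569 (2.98% of all genes). In muscle spots they overlapped on both scales, with 0.239 to 1.34 normalised counts per spot in 3 Control blocks and 0.128 to 0.313 in 4 Loaded blocks, a Control block of 5 spots with 9 UMIs being left out.

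Per 10000 UMIs, *Foxo1* differed little across the Control bone region. Its 4 blocks held 2.70, 2.56, 2.53 and 2.63 UMIs per 10000, from 61, 26, 12 and 48 UMIs. Their muscle shares were 27.1%, 8.17%, 12.5% and 5.58%. As scran-normalised counts per spot they held 1.16, 0.824, 0.928 and 0.839, highest where the muscle share was highest. The Loaded blocks held 1.63, 1.27, 1.07 and 1.55 UMIs per 10000, each below each Control block. As scran-normalised counts per spot they did not overlap either, at 0.824 to 1.16 and 0.344 to 0.538. On that scale this held for 2.68% of all genes. *Trim63* of the same Control blocks was 4.20, 1.67, 3.16 and 2.19, highest where the muscle share was highest, and overlapped the Loaded blocks (1.48, 1.15, 1.55 and 2.10). *Ucp3* was the only one of the 7 whose blocks in muscle spots did not overlap, again without the Control block of 5 spots, which held 1 UMI. The UMIs per 10000 were 0.457 to 0.525 in the Control and 0.189 to 0.335 in the Loaded section. As scran-normalised counts per spot they were 0.223 to 0.342 and 0.0747 to 0.166, and on that scale 3.22% of all genes did the same. The left-out Control block, at 0.27 and 0.102 on the 2 scales, lay inside the Loaded ranges, so with it the blocks of *Ucp3* overlap.

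Around the members, the lists of their pathways were summed up by the number of genes whose 95% interval left out 0. The intervals cover counting error only, so a gene with many UMIs leaves out 0 at a small difference. *Sqstm1* of muscle spots counts as above at 0.10 (0.03 to 0.17), where the median of all genes was 0.10. The lists were not matched to all genes for UMIs, so the medians are given beside the counts. Over all genes, intervals lay below 0 for 11.1% in the bone region, 18.5% in muscle spots and 14.0% in the remaining spots, and above 0 for 11.4%, 22.3% and 9.04%. With library totals each muscle spot value below is higher by 0.36, and per UMI of the muscle list by 0.78. The medians of all genes move alike, from 0.10 to 0.46 and 0.87.

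In muscle spots the other genes of the pyruvate dehydrogenase step differed by less than *Pdk4*. Of 12 genes of the pyruvate dehydrogenase complex and its regulators, 5 had intervals below 0 in muscle spots and 1 above. The median log2 fold change was -0.22. With library totals it was 2 below and 3 above (median 0.14), and per muscle UMI 0 and 9 (0.56). The lowest were *Mpc2*, a subunit of the mitochondrial pyruvate carrier, with 3332 and 1088 UMIs (-0.78, -0.88 to -0.68), and *Pdhb*, a subunit of the complex, with 628 and 230 (-0.61). The highest were *Pdk1*, which also encodes a kinase of the complex, with 323 and 247 UMIs (0.45, 0.20 to 0.69), and the phosphatase subunit *Pdp2* (0.33, -0.38 to 1.03). *Pdk1* thus had the opposite sign to *Pdk4* in the same spots, but was 0.01 in the bone region and -0.07 in the remaining spots. *Pdk2*, the kinase gene with the most UMIs in muscle spots (2955 and 1609), was -0.04 (-0.13 to 0.05) there. It was -0.54 (-0.94 to -0.14) in the bone region and 0.49 (0.22 to 0.76) in the remaining spots.

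Of 28 genes of fatty acid oxidation and other PPAR targets, 6 had intervals below 0 and 10 above in muscle spots (median 0.10). With library totals it was 1 and 19 (0.46), and with TMM factors 8 and 8 (-0.04). *Plin5*, a lipid droplet protein of oxidative tissue, had 60 and 81 UMIs (1.27, 0.77 to 1.77), and *Acot2*, a mitochondrial thioesterase, 175 and 183 (0.90, 0.59 to 1.21). *Hadhb*, of the mitochondrial trifunctional protein, had 962 and 345 (-0.64, -0.83 to -0.47), and *Acsl1*, which activates fatty acids, 270 and 114 (-0.41, -0.74 to -0.09). In the bone region the list had 7 intervals below 0 and 0 above (median -0.41, 25 genes), and in the remaining spots 3 and 8 (0.21). The bone region count rested on the scaling, with 2 and 1 (-0.29) for library totals and 0 and 14 (0.60) per muscle UMI.

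Of 11 genes of glucose uptake and glycolysis, 10 had intervals below 0 and 0 above in muscle spots, with a median of -0.89. With library totals it was 8 and 1 (-0.53), and per muscle UMI 7 and 3 (-0.11). The 10 include *Gapdh*, which had only 33 and 7 UMIs (-1.40, -2.82 to -0.20), so its value rests on few counts. *Pygm*, muscle glycogen phosphorylase, had 44970 and 9419 UMIs (-1.42, -1.45 to -1.39) and *Pgk1* 1649 and 422 (-1.13), whereas *Hk2*, hexokinase 2, had 1443 and 875 (0.11, -0.01 to 0.24) and *Gpi1* 9571 and 4152 (-0.37). The median was -0.71 in the bone region (10 genes) and 0.17 in the remaining spots. The slow share also differed between these spots, and its part in the lower values was not tested.

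**Figure D5:**
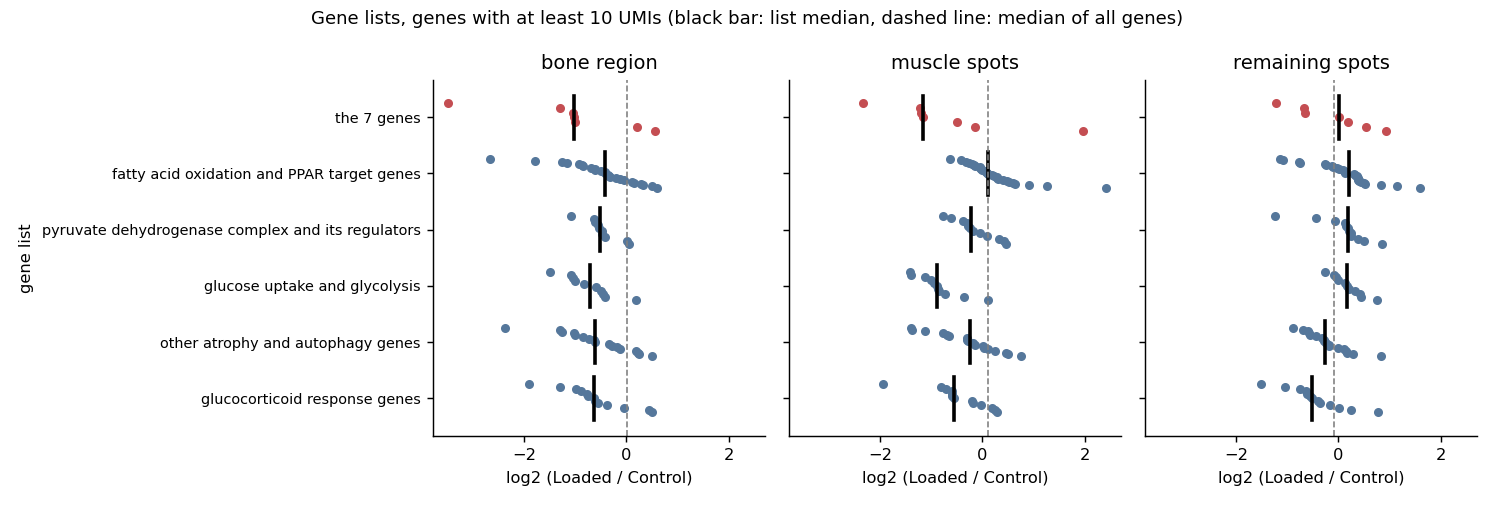
Log2 ratio of Loaded over Control for the genes of 6 lists (1 point a gene, at least 10 UMIs) in the 3 tissues, with the list median as a black bar and the median of all genes as a dashed line. In muscle spots glycolysis has the lowest median of the pathway lists (-0.89) and fatty acid oxidation that of all genes (0.10).

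Of 18 other atrophy and autophagy genes, 10 had intervals below 0 and 4 above in muscle spots, with a median of -0.24. With library totals it was 5 and 8 (0.12). *Foxo4*, another FoxO factor, had 834 and 177 UMIs (-1.40, -1.64 to -1.17), and *Mstn*, myostatin, which restrains muscle growth, 418 and 90 (-1.38, -1.73 to -1.05). *Ctsl*, a lysosomal protease, had 1453 and 1382 (0.76, 0.66 to 0.87), and *Gabarapl1*, an autophagosome protein, 215 and 170 (0.50). In the bone region *Foxo4* had 52 and 8 UMIs (-2.37, -3.66 to -1.29).

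With scran factors glucocorticoid response genes had a median below 0 in each tissue. It was -0.64 in the bone region, -0.55 in muscle spots and -0.51 in the remaining spots, where 8, 9 and 9 of 13 genes had intervals below 0 and 2, 3 and 2 above. With library totals muscle spots had 6 below and 6 above (-0.19), and per muscle UMI 1 and 8 (0.23). *Zbtb16*, a transcription factor gene switched on by glucocorticoids, had 33 and 7 UMIs in the bone region (-1.91), 357 and 52 in muscle spots (-1.94, -2.39 to -1.52) and 45 and 22 in the remaining spots (-1.05, -1.86 to -0.29). *Ddit4*, an inhibitor of mTORC1 signalling, had 375 and 119 in muscle spots (-0.82) and 113 and 40 in the remaining spots (-1.52, -2.08 to -0.99). *Mt2*, a metallothionein, went the other way in all 3 (0.44, 0.29 and 0.77), and *Cdkn1a*, the cell cycle inhibitor p21, was -0.77 in the bone region, 0.25 in muscle spots and -0.64 in the remaining spots.

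Over the 24 blocks of both sections, the genes whose log2 level followed *Pdk4* most closely, among 7956 genes, were *Mbnl1* (r = 0.86), *Alkbh5* (0.86), *Sdhc* (0.85), *Foxo4* (0.85) and *Lpin1* (0.84). The blocks share sections, libraries and muscle content, so the values are descriptive. Because they also pool both sections, a lower Loaded level of these genes is in part built into their choice. *Foxo1* came to 0.73, *Fbxo32* to 0.58, *Trim63* to 0.52, *Ucp3* to 0.50, *Cpt1b* to 0.29 and *Angptl4* to -0.36. *Mbnl1*, which encodes a splicing regulator, was lower in all 3 tissues, with 150 and 36, 2319 and 415, and 265 and 112 UMIs (-1.73, -1.65 and -1.26). *Alkbh5*, an RNA demethylase, gave -1.92, -1.02 and -1.15. *Lpin1*, a phosphatidate phosphatase, gave -1.74, -1.31 and -0.75, and *Sdhc*, a subunit of respiratory complex II, -1.52, -0.69 and -0.04.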

How the data were processed

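The Visium counts of 2 sections, 1 per group, were used. The authors counted UMIs with Space Ranger 2.0.0 (mm10 per the labels), and deposited raw counts per gene and spot without normalization. Scripts removed spots under 500 UMIs or 250 genes, leaving 1898 of 1962 Control and 1431 of 1436 Loaded spots, and took bone spots from the study's barcode list. Of the barcodes, 557 occur in both sections because slides share their positions. Counts were summed over the spots of a tissue and divided by scran size factors computed within it (R 4.3.3, scran 1.30.0). Ratios by muscle share, distance and fibre type, and those between tissues of a section, used library totals. Ratios and intervals were computed with scipy 1.17.1, numpy 2.4.6 and pandas 2.3.3 (Python 3.11.15), plots with matplotlib 3.10.9. Exact 95% intervals are Poisson for counts and conditional binomial for ratios, and were tested on simulated data. They cover counting error only. No test across spots was run, since spots of 1 section are not replicates. Promoters came from RefSeq (GRCm38.p6) and gene positions from GENCODE. Blocks were 2 sides and 2 ends of a tissue. Those under 10 spots were left out of the block ranges and overlaps after the values were seen. They were kept in the correlations and in the runs with a block left out.

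The 7 genes and the lists were chosen with earlier results of these data known. Named pathway genes are the 2 highest and 2 lowest of each list in muscle spots among genes with at least 50 UMIs. The 5 genes most like *Pdk4* have the highest Pearson correlation of log2(UMIs per 10000 + 0.1) over the blocks, among genes with at least 200 UMIs. The ratios were repeated with scran over all spots, TMM factors (edgeR 4.0.16), library totals with and without the 20 most abundant genes, spots weighted equally, other limits, and each block left out. Scalings of the pathway lists were added after seeing the data. *Mpc1*, *Tpi1* and *Ldha* were not analysed here, and *Aldoa* is uncertain because its symbol occurs more than once.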

Additional observations from a re-analysis of the deposited data

How the results depend on the processing

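No paired analysis was possible because each group has 1 section. The direction of *Pdk4* held in all 3 tissues under every alternative that gave a value. In the bone region its log2 fold change ranged from -3.49 to -3.36, and from -3.95 to -2.65 with a block left out. Per UMI of the muscle list, which is outside these ranges, it was -2.46 there, -1.56 in muscle spots and -1.43 in the remaining spots. In muscle spots it was -1.98 with library totals and -1.93 with equal weight for spots, and with a block left out ranged from -2.63 to -1.32, the latter without the first Control block. In the remaining spots it was -0.87 with equal weight for spots and -3.67 (-9.05 to -1.02) with a muscle share limit of 5%. With a block left out it ranged from -1.61 to -1.05 there. In bone spots with a muscle share below 5%, *Pdk4* (2 UMIs in 17 Control spots, 0 in 25 Loaded) and *Cpt1b* gave no ratio, and *Trim63* reversed to 0.52 (-0.94 to 2.10). The cause was not tested. Against scran factors, library totals moved all genes of muscle spots by 0.36 and of the bone region by 0.12, TMM factors moved those of muscle spots by -0.14, and with library totals the share of muscle spot genes above 0 went from 56.6% to 78%. *Trim63* of muscle spots ranged from -1.63 to -0.64 with a block left out, *Fbxo32* from -1.44 to -0.44, and *Cpt1b* from -0.45 to 0.32. Depth limits *Angptl4* throughout and *Pdk4* in the Loaded bone region.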
